A study of Mus musculus with 5 samples.

Results

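The genes described here are those of glycolysis, gluconeogenesis and the pentose phosphate pathway. A list of 39 genes was set by function, and their levels were read from 5 mouse expression arrays. Of the 39, 37 had at least 1 probe that could be named through RefSeq, and all 37 were well above background on at least 1 array. No probe was matched to Pdk2 or Pck1, which are therefore not analysed here. The 37 genes were covered by 57 probes, 13 of them by more than 1, and they were set beside the 15446 named genes that were kept in the whole series.

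Glycolysis splits glucose into pyruvate, which is either reduced to lactate or passed into the mitochondrion. Gluconeogenesis runs the pathway in reverse in liver and kidney, with its own enzymes at the irreversible steps. The pentose phosphate pathway draws glucose 6-phosphate off to make NADPH and ribose. Many steps are catalysed by isozymes from separate genes whose use differs between tissues, and pluripotent cells and tumor cells are both known for high glycolysis.

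The study fused mouse embryonic stem cells with mouse hepatoma cells and followed the hybrids as they differentiated. ES is the embryonic stem cell line E14 and Hepa1-6 is a hepatoma line. EHe is the hybrid of E14 and Hepa1-6, and EHeD7 and EHeD14 are the same hybrid line after 7 and 14 days of differentiation. ES and EHe were grown in Glasgow medium with 10% serum replacement, 1% fetal bovine serum and 1000 units/ml of leukemia inhibitory factor. Per the labels, EHeD7 and EHeD14 were monolayers on gelatin, fed Dulbecco medium rich in glucose and holding 15% fetal calf serum, and the Hepa1-6 culture had such a medium with 10%. The study's methods also describe differentiation as embryoid bodies, without naming the array samples. Glucose, serum and cell state therefore changed together, and their parts in a difference cannot be told apart. The hybrid line came from colonies picked after fusion with polyethylene glycol and drug selection.

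There was 1 array per condition and no replicate, so no p-value is given and the number of arrays limits the precision. A level is given as the signal divided by the 75th percentile of its array. That percentile lay between 1087 and 1456 signal units, and 54.7% to 67.6% of all probes were well above background. The median SD of the log2 signal over spots printed repeatedly on an array was 0.071 to 0.10. The scanner software's own error of a member's log2 level had a median of 0.14. Both cover noise within an array and not the spread between cultures. A gene was called higher or lower past 3-fold, the fold used in the study's own contrast. Where a probe was not well above background on the lower array, the fold is given as a bound against the lowest signal called well above background on that array. Hepa1-6 was hybridized on another slide than the other 4 arrays, so slide and line cannot be told apart. In these bulk samples, fewer cells of a type and less RNA per cell cannot be told apart either. Probes of Gapdh, Ldha, Eno1, Aldoa and Pgk1 may also bind transcripts of processed pseudogenes, which was not tested.

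The cells were checked against marker genes. All 6 measured ES-cell markers, among them Pou5f1 and Sox2, were well above background in ES, EHe, EHeD7 and EHeD14, and only Dppa5a was in Hepa1-6. Detection did not mean a steady level. The ES-cell sum was 292 in ES and 342 in EHe, then 237 on day 7 and 133 on day 14. Of the EHe sum the brightest marker gave 233, and later 191 on day 7 and 96.3 on day 14. The dimmest marker of an array read 11.1 in EHe, then 1.29 on day 7 and 0.140 on day 14. Of 6 hepatocyte markers, 5 (Alb, Afp, Apoa2, Trf and Fgb) were well above background in Hepa1-6. Alb, which encodes albumin, Apoa2 and Fgb were not well above background on any other array. Trf and Ahsg were well above background in ES, EHe, EHeD7 and EHeD14, and Afp also in ES, while Ahsg was not in Hepa1-6. The summed hepatocyte level was 227 in Hepa1-6 and 0.395 to 3.17 elsewhere. All 7 fibroblast markers were well above background in EHeD7 and EHeD14, against 5 in ES, 4 in EHe and 3 in Hepa1-6. Their summed level was 40.4 in EHe, 16.1 in EHeD7 and 20.4 in EHeD14. Of these sums, the brightest single marker gave 39.5, 11.5 and 15.2, so they mostly reflect that marker and not the list.

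Promoters are shown for members on which the results turn, because the core of the hypoxia response element occurs often in glycolytic genes. This element is bound by hypoxia-inducible factors, and its core letters are ACGTG or GCGTG. Promoters were taken from RefSeq on GRCm38.p6 as 250 bases before and 50 after each start, and all 39 members matched, with 60 promoters. ACGTG or GCGTG on either strand was present in 68.3% of the member promoters and in 43.8% of all 32841 promoters of this length. Counted separately, ACGTG was in 35% against 19.6% and GCGTG in 50% against 32.4%, where a promoter could hold both. CACGTG, the E-box, which contains ACGTG, was in 11.7% against 7.15%. The member promoters were also richer in CpG, with a median of 13.5 against 7 CpG per promoter, which makes letters containing CG more frequent. The 250 bases before the start are printed, with matches to ACGTG or GCGTG on either strand in capitals, and for Ldha and Pfkfb3 1 of 2 annotated promoters is shown. Ldha and Pfkfb3, which passed 3-fold in EHeD7 against EHe, carried 3 and 2 capital stretches in the windows shown, and their other promoters also held matches. Pgk1, which did not pass, carried 2. Eno2 and Fbp1 passed and carried 0 in these windows. Ldhb and Pdk3, which were not well above background in Hepa1-6, carried 1 and 4.
Ldha, chr7:46845554-46845803, plus strand: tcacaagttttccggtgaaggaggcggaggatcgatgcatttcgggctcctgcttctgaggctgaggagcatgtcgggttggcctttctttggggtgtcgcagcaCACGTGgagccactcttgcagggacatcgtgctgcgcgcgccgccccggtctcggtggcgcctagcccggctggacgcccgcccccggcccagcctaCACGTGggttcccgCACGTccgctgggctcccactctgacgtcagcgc
Pgk1, chrX:106186850-106187099, plus strand: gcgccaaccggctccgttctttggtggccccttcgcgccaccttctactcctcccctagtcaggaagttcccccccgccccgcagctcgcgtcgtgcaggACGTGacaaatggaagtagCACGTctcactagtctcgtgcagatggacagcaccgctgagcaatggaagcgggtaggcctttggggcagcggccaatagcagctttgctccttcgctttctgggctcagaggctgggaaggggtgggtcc
Pfkfb3, chr2:11502091-11502340, minus strand: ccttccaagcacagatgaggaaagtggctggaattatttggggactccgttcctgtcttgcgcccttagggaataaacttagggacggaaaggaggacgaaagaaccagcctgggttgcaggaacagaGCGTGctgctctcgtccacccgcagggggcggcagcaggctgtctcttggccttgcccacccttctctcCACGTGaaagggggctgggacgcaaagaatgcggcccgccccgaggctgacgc
Eno2, chr6:124769674-124769923, minus strand: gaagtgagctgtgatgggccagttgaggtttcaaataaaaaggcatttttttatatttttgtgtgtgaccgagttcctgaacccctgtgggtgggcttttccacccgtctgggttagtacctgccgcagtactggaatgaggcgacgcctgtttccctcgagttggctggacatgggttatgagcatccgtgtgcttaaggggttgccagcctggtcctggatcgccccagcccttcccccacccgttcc
Fbp1, chr13:62888283-62888532, minus strand: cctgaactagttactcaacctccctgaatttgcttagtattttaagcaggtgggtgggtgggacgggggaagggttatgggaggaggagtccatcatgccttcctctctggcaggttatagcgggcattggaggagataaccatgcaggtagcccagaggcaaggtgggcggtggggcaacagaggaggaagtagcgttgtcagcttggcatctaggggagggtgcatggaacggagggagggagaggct
Ldhb, chr6:142507958-142508207, minus strand: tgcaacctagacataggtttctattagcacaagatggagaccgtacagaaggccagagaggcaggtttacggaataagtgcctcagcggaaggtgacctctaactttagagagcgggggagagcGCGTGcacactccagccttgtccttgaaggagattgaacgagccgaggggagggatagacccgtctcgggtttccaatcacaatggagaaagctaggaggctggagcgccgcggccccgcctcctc
Pdk3, chrX:93832151-93832400, minus strand: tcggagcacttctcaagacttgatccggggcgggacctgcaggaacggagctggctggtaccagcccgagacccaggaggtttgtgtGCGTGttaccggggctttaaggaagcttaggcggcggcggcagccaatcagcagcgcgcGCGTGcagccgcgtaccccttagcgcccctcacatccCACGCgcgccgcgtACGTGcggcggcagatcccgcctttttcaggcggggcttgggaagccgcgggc
A match describes the letters only, and no binding was measured.

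In EHe against ES, 0 of 37 members were higher and 3 were lower (Hk3, Eno3 and Ldhb). Over all genes tested, 2.71% were higher and 5.64% lower. In Hepa1-6 against ES, 3 were higher (Pfkfb3, Eno2 and Pklr), with 14.1% of all genes, and 8 were lower (Hk3, Pfkp, Pgam2, Ldhb, Pdk3, Fbp1, Fbp2 and Tkt), with 26.3% of all genes. Both shares of the members lay below those of all genes. Of the 8 lower members, 5 (Hk3, Ldhb, Pdk3, Fbp1 and Fbp2) were not well above background in Hepa1-6.

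From EHe to EHeD7, 5 members rose (Pfkl, Pfkfb3, Eno2, Ldha and Fbp1), which is 13.5% of them against 9.38% of all genes, and 0 fell, against 4.16%. From EHe to EHeD14, 3 rose (Pfkfb3, Eno2 and Fbp1), against 9.56% of all genes, and 2 fell (Pfkp and Fbp2), against 4.81%. Between the days, 0 members were higher in EHeD14 than in EHeD7, with 0.764% of all genes, and Fbp2 was lower, with 1.18%. The comparisons of both days share the EHe array, so their likeness is not a result.

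The members' median log2 difference from EHe was 0.40 in EHeD7, where the median of all genes was -0.08, and 0.31 in EHeD14, where it was -0.05. The members were also grouped by role, after their values were seen. Of the 20 enzymes from hexokinase to lactate dehydrogenase, 17 lay above EHe in EHeD7 with a median of 0.80, and 16 in EHeD14 with a median of 0.72. The EHe array was itself low for these enzymes. In EHe, 15 of the 20 lay below ES, with a median of -0.40 against -0.14 for all genes. Of the 7 measured flux regulators (Pfkfb and Pdk), 6 lay above EHe in EHeD7 with a median of 0.47, and 5 in EHeD14 with a median of 0.09. The 5 measured gluconeogenic enzymes had medians of -0.36 and -0.30, and the 5 pentose phosphate enzymes of -0.25 and 0.03. ES held the highest level of 14 members (37.8%), against 31.1% of all genes. EHeD7 held the highest level of 11 members (29.7%), while it was the highest array for 11.6% of all genes. Hepa1-6 held the lowest level of 20 members (54.1%), and was the lowest for 47.5% of all genes. EHe held the lowest level of 9 members (24.3%), against 14.1% of all genes.

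**Figure D1:**
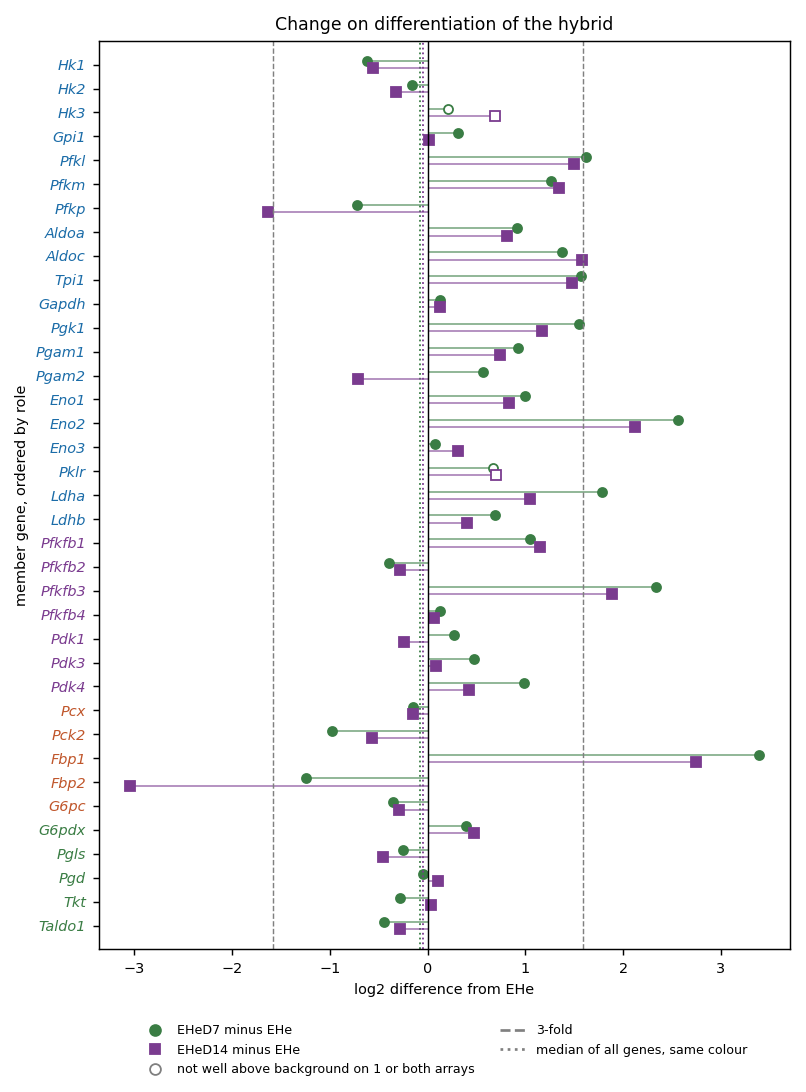
Log2 difference of each of the 37 members from EHe (x axis) in EHeD7 (circles) and EHeD14 (squares), with genes on the y axis coloured by role: glycolysis in blue, flux regulators in purple, gluconeogenesis in orange and pentose phosphate in green. Most glycolytic enzymes lie right of 0, Fbp1 lies farthest right at 3.39 in EHeD7, and Fbp2 farthest left at -3.05 in EHeD14.

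Calls close to 3-fold depend on the threshold. In EHeD7 against EHe, Pfkl was just inside at 3.07-fold and Tpi1 just outside at 2.97-fold. Aldoc was just outside in EHeD14 at 2.98-fold. In Hepa1-6 against ES, Tpi1 reached 2.99-fold higher and Pgd 2.996-fold lower, neither passing. At 2-fold, 10 members were higher than EHe on each day, with 16.2% of all genes in EHeD7 and 15.3% in EHeD14. Fbp2 was lower in EHeD7, with 8.17% of all genes, and Pfkp and Fbp2 in EHeD14, with 9.04%.

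Scaling mattered most for Hepa1-6 against ES. The median log2 difference of all genes was -0.49, and centring each array on its median moved it to 0.29, with 22.2% of genes then higher and 17.7% lower, and 7 members higher and 6 lower. The members' median was -0.97, a difference of -0.47 from that of all genes, which a shift of whole arrays cannot alter. It was -0.26 under quantile normalization, -0.31 with normexp, -0.29 with probes bright on all 5 arrays and -0.63 with no filter on dim probes. For EHe against ES the members' median was -0.24 against -0.14 for all genes.

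Hexokinases trap glucose in the cell by phosphorylating it. Hk1, the housekeeping form, had a level of 15.1 in ES and 26.4 in Hepa1-6, and in the hybrid 10.1 in EHe, 6.56 in EHeD7 and 6.89 in EHeD14. It was thus highest in the hepatoma and 3.83-fold lower in EHeD14 than there. Hk2, the inducible form of muscle and tumor cells, ran the other way between the parents, with 17.8 in ES and 13.9 in EHe, 12.5 in EHeD7 and 11.1 in EHeD14, and 7.74 in Hepa1-6. Neither hexokinase passed 3-fold from EHe on either day. Hk3, a form of white blood cells, was near background throughout, at 0.046 in ES, 0.016 in EHeD7 and 0.022 in EHeD14, and was not well above background in EHe or Hepa1-6. Its calls rest on those dim signals, and the bounds were only at least 1.33-fold lower in EHe and at least 1.83-fold lower in Hepa1-6 than in ES. They were lost under normexp background correction and quantile normalization. Of the 6 white blood cell markers, 2 were measured, with a summed level of 0.151 to 0.324 on the 5 arrays. Gpi1, which converts glucose 6-phosphate to fructose 6-phosphate, ranged from 52.6 in Hepa1-6 to 85.0 in ES.

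Phosphofructokinase commits sugar to glycolysis and is built from 3 kinds of subunit. The liver-type Pfkl was at 6.50 in ES and 7.02 in Hepa1-6, and in the hybrid 6.63 in EHe, 20.4 in EHeD7 and 18.6 in EHeD14. It was therefore about equal in the parents and the hybrid and 3.07-fold higher in EHeD7 (log2 1.62 ± 0.20, scanner error, n = 1 array each), a call lost at 2.71-fold under median centring. The muscle-type Pfkm stood at 9.34 in ES and 5.34 in EHe, 12.8 in EHeD7 and 13.5 in EHeD14, and 3.12 in Hepa1-6. It was 2.40-fold and 2.53-fold above EHe on the 2 days, which did not pass. The platelet-type Pfkp went from 3.33 in ES and 3.65 in EHe to 2.20 in EHeD7, 1.18 in EHeD14 and 0.977 in Hepa1-6. It fell 3.103-fold from EHe to EHeD14 (log2 -1.63 ± 0.20) and was 3.41-fold lower in Hepa1-6 than in ES. A dimmer probe of Pfkp lay between 0.146 and 0.208 on all arrays and passed in neither comparison. With the mean of both probes neither call held.

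The Pfkfb enzymes set the level of fructose 2,6-bisphosphate, the main activator of phosphofructokinase. Pfkfb3, the form with the strongest kinase activity, was at 0.365 in ES and 1.21 in Hepa1-6, and in the hybrid 0.404 in EHe, 2.04 in EHeD7 and 1.49 in EHeD14. It rose 5.05-fold from EHe to EHeD7 (log2 2.34 ± 0.21) and 3.69-fold to EHeD14, and was 3.30-fold higher in Hepa1-6 than in ES. Its other probes differed. A dimmer probe read 0.137 in ES, 0.033 in EHeD7 and 0.027 in EHeD14 and was not well above background in EHe or Hepa1-6, and another was well above background in EHeD7 and EHeD14 alone, at 0.042 and 0.034. With the mean of the probes, the 3 calls were lost and the Hepa1-6 difference turned to -0.25 on the log2 scale. The liver form Pfkfb1 was at 3.13 in ES and 2.96 in EHe, against 6.10 in EHeD7, 6.57 in EHeD14 and 1.57 in Hepa1-6, so it was 2.06-fold and 2.22-fold above EHe on differentiation. Pfkfb2 stayed between 0.159 and 0.232, and Pfkfb4 between 0.240 and 0.546.

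The triose steps, where ATP and NADH are first made, had high signals on every array. Aldoa, the main aldolase, read 208 in ES and 264 in Hepa1-6, and in the hybrid 159 in EHe, 299 in EHeD7 and 278 in EHeD14. Aldoc, the brain form, read 4.02 in ES and 1.77 in EHe, 4.57 in EHeD7 and 5.26 in EHeD14, and 1.94 in Hepa1-6. Tpi1, triose phosphate isomerase, was at 40.3 in ES and 34.2 in EHe and then at 101 in EHeD7, 95.1 in EHeD14 and 120 in Hepa1-6. Both differentiated hybrids thus lay nearer to the hepatoma than to EHe for Tpi1. Pgk1, the first ATP-forming enzyme, was at 48.9 in ES and 123 in Hepa1-6, and in the hybrid 71.1 in EHe, 208 in EHeD7 and 160 in EHeD14. It was 2.93-fold above EHe in EHeD7 and 2.25-fold in EHeD14, and so did not pass. Its probe was printed 10 times per array, with an SD between spots of 0.092 to 0.24 on the log2 scale.

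Gapdh, the reference transcript of the study's quantitative PCR, varied least of the 37 members. It was at 203 in ES and 157 in EHe, 172 in EHeD7 and 172 in EHeD14, and 188 in Hepa1-6, a range of 1.29-fold. The second Gapdh probe read 101, 97.9, 101, 110 and 77.7 in the same order. Neither probe passed 3-fold in any comparison.

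Phosphoglycerate mutase and enolase follow in lower glycolysis, each with several isozymes. Pgam1, the common mutase, was at 136 in ES and 93.6 in Hepa1-6, and in the hybrid 89.0 in EHe, 169 in EHeD7 and 148 in EHeD14. The muscle form Pgam2 was at 1.13 in ES and 0.563 in EHe, against 0.836 in EHeD7, 0.343 in EHeD14 and 0.040 in Hepa1-6, which was 28.5-fold lower in Hepa1-6 than in ES (log2 -4.83 ± 0.28). The hybrids kept Pgam2 above the hepatoma at each time.

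Eno1, the common enolase, was at 7.54 in ES and 10.0 in EHe, 19.9 in EHeD7 and 17.8 in EHeD14, and 5.79 in Hepa1-6, up to 1.99-fold above EHe. Eno2, best known from neurons, was at 0.078 in ES and 0.119 in EHe, 0.702 in EHeD7 and 0.520 in EHeD14, and 0.690 in Hepa1-6. It rose 5.89-fold to EHeD7 (log2 2.56 ± 0.22) and 4.36-fold to EHeD14, and was 8.87-fold higher in Hepa1-6 than in ES. EHeD7, EHeD14 and Hepa1-6 thus lay together, apart from ES and EHe. The summed level of 7 neuron markers fell from 8.69 in EHe to 2.30 in EHeD7 and 2.16 in EHeD14, with 0.520 in the hepatoma. The brightest single marker gave 5.12 of the EHe sum, then 0.943 on day 7 and 0.910 on day 14. Neuron markers well above background numbered 6 on each hybrid array, with Dcx lost and Syp gained after EHe. The fall is therefore one of the sum and is not shown for the list as a whole. Eno3, the muscle enolase, was at 9.33 in ES and 16.3 in Hepa1-6, and in the hybrid 1.39 in EHe, 1.47 in EHeD7 and 1.72 in EHeD14. All 3 hybrid arrays lay below both parents, and EHe was 6.72-fold below ES (log2 -2.75 ± 0.20) and 11.8-fold below Hepa1-6. Of 7 muscle markers, 7 were well above background in ES, EHeD7 and EHeD14 and 4 each in EHe and Hepa1-6. Their summed levels were 1.68 in ES, 1.21 in EHe, 1.44 in EHeD7 and 1.46 in EHeD14. The sum in Hepa1-6 was 7.37, of which the brightest single marker gave 7.05.

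**Figure D2:**
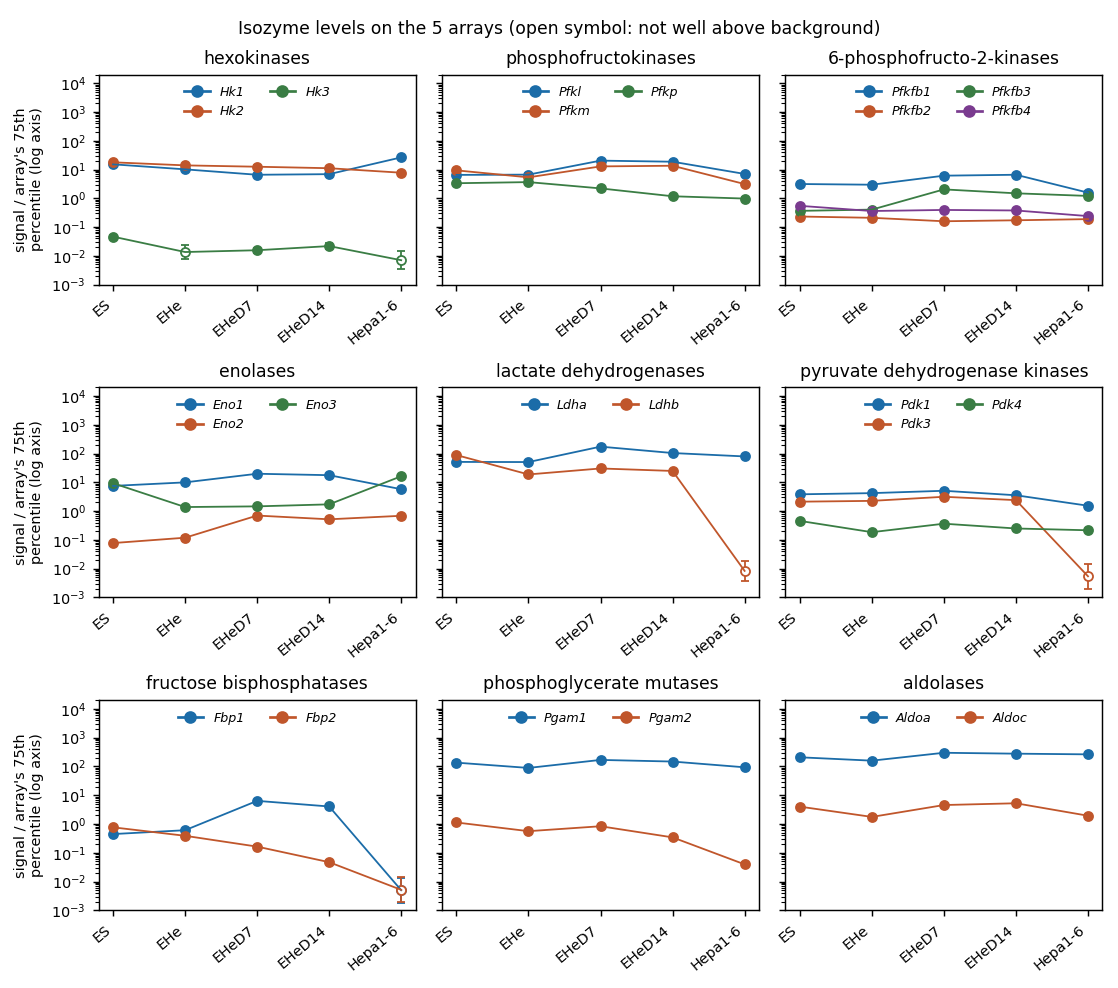
Level of each isozyme on the 5 arrays (y axis, signal divided by the 75th percentile of the array, log axis; x axis, arrays), with bars for the scanner error of 1 array and open symbols for signals not well above background. Ldhb, Pdk3, Fbp1 and Fbp2 drop to background in Hepa1-6, while Eno2 and Pfkfb3 lie higher in EHeD7, EHeD14 and Hepa1-6 than in ES and EHe.

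Pyruvate kinase and lactate dehydrogenase close the pathway. Pklr, the pyruvate kinase of liver and red cells, was at 0.037 in ES, 0.023 in EHeD7, 0.024 in EHeD14 and 0.148 in Hepa1-6 and was not well above background in EHe. It was 3.96-fold higher in Hepa1-6 than in ES (log2 1.99 ± 0.28), which fell to 1.94-fold with normexp, and 6.22-fold lower in EHeD14 than in Hepa1-6. Pkm, the pyruvate kinase of most other cells and no member of the list, was at 19.5 in ES and 16.6 in EHe, 33.2 in EHeD7 and 30.2 in EHeD14, and 13.3 in Hepa1-6.

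Ldha, the subunit that favours lactate formation, was at 51.4 in ES and 79.8 in Hepa1-6, and in the hybrid 50.8 in EHe, 175 in EHeD7 and 105 in EHeD14. It rose 3.44-fold to EHeD7 (log2 1.78 ± 0.20) and was 2.06-fold above EHe in EHeD14. The second Ldha probe read 38.4, 35.4, 148, 137 and 95.2 in the same order and passed on both days, at 4.18-fold and 3.88-fold. Ldhb, the heart-type subunit, was at 88.9 in ES and 18.9 in EHe, then 30.4 in EHeD7 and 24.9 in EHeD14, and was not well above background in Hepa1-6. It was at least 3514-fold lower in Hepa1-6 than in ES, and 4.71-fold lower in EHe than in ES (log2 -2.24 ± 0.20). The hybrid therefore lay between its parents for Ldhb, and EHeD14 was at least 986-fold above Hepa1-6.

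Pyruvate dehydrogenase kinases keep pyruvate out of the mitochondrial cycle by switching off pyruvate dehydrogenase. Pdk1 was at 3.84 in ES and 4.23 in EHe, against 5.10 in EHeD7, 3.57 in EHeD14 and 1.54 in Hepa1-6, and its second probe was 4.82-fold lower in Hepa1-6 than in ES where the first was 2.49-fold lower. Pdk3 was at 2.13 in ES and 2.28 in EHe, then 3.16 in EHeD7 and 2.41 in EHeD14, and was not well above background in Hepa1-6. It was at least 84.3-fold lower there than in ES. Its second probe was also not well above background in Hepa1-6, and read 0.668 in ES against 1.32 in EHe, where it was 1.98-fold higher. Pdk4, a form induced by fasting, was at 0.458 in ES and 0.216 in Hepa1-6, and in the hybrid 0.186 in EHe, 0.366 in EHeD7 and 0.250 in EHeD14.

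**Figure D3:**
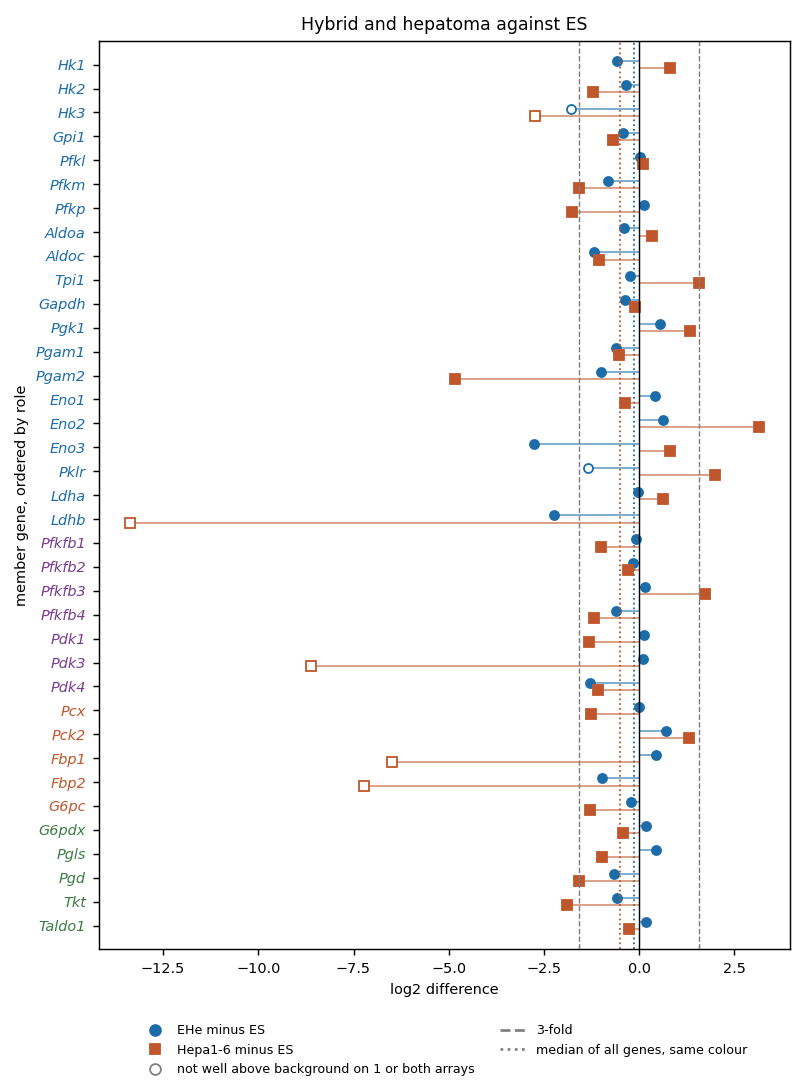
Log2 difference of each member from ES (x axis) in EHe (circles) and Hepa1-6 (squares), with genes on the y axis coloured by role and open symbols where a signal was not well above background. Ldhb, Pdk3, Fbp2 and Fbp1 lie far left in Hepa1-6, where only the bounds in the text hold, while in EHe most members lie close to 0.

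The enzymes particular to gluconeogenesis did not move as a group. Fbp1, the fructose bisphosphatase of liver and kidney, was at 0.447 in ES and 0.609 in EHe, then 6.37 in EHeD7 and 4.07 in EHeD14, and was not well above background in Hepa1-6. It rose 10.5-fold to EHeD7 (log2 3.39 ± 0.20) and 6.68-fold to EHeD14, and EHeD14 was at least 161-fold above Hepa1-6. It was the member with the largest rise, although the hepatoma lacked its signal. Fbp2, the muscle form, was at 0.767 in ES and 0.389 in EHe, then 0.164 in EHeD7 and 0.047 in EHeD14, and was not well above background in Hepa1-6. It was 2.38-fold below EHe in EHeD7, fell 8.26-fold to EHeD14 (log2 -3.05 ± 0.25), and was 3.48-fold lower in EHeD14 than in EHeD7. The pair thus moved in opposite directions on differentiation.

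G6pc, the glucose 6-phosphatase that releases glucose from liver, stayed between 0.045 in Hepa1-6 and 0.110 in ES. Pcx, which carboxylates pyruvate, was at 5.38 in ES and 5.34 in EHe, 4.80 in EHeD7 and 4.80 in EHeD14, and 2.22 in Hepa1-6. Pck2, the mitochondrial phosphoenolpyruvate carboxykinase, was at 6.54 in ES and 16.3 in Hepa1-6, and in the hybrid 10.74 in EHe, 5.43 in EHeD7 and 7.23 in EHeD14. None of these 3 passed in EHe, EHeD7 or EHeD14 against their reference, or in Hepa1-6 against ES.

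No pentose phosphate enzyme passed 3-fold on differentiation. G6pdx, the entry enzyme that makes the first NADPH, was at 17.1 in ES and 19.4 in EHe, 25.5 in EHeD7 and 27.0 in EHeD14, and 12.7 in Hepa1-6. All 5 lay below ES in Hepa1-6, with a median of -0.97. The members' median was the same because Pgls was the middle gene of both sets, so their equality is not a result. The median of all genes was also below ES, at -0.49, and G6pdx at -0.42 and Taldo1 at -0.25 lay above it. Tkt, transketolase of the non-oxidative branch, was at 145 in ES and 97.5 in EHe, 79.9 in EHeD7 and 99.9 in EHeD14, and 39 in Hepa1-6, which was 3.72-fold lower than in ES and 2.16-fold lower under median centring. Pgls, which opens the lactone ring, ranged from 7.76 in Hepa1-6 to 20.8 in EHe, and Pgd, which makes the second NADPH, from 6.01 in Hepa1-6 to 18.0 in ES. Taldo1, the transaldolase, varied by 1.36-fold.

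In EHeD14 against Hepa1-6, 9 members were higher (Hk3, Pfkm, Pfkfb1, Pgam2, Eno1, Ldhb, Pdk3, Fbp1 and Fbp2), with 22.6% of all genes, and 3 were lower (Hk1, Eno3 and Pklr), with 13% of all genes. Of the 9, Hk3, Ldhb, Pdk3, Fbp1 and Fbp2 were not well above background in Hepa1-6. The bounds were at least 986-fold for Ldhb, 161-fold for Fbp1, 95.4-fold for Pdk3 and only 1.86-fold for Fbp2. For Hk3 no bound could be given, so its count rests on a dim signal alone. The comparison of EHeD7 shares the Hepa1-6 array and gave 9 higher, with 23.9% of all genes, and 4 lower, with 13.2%.

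**Figure D4:**
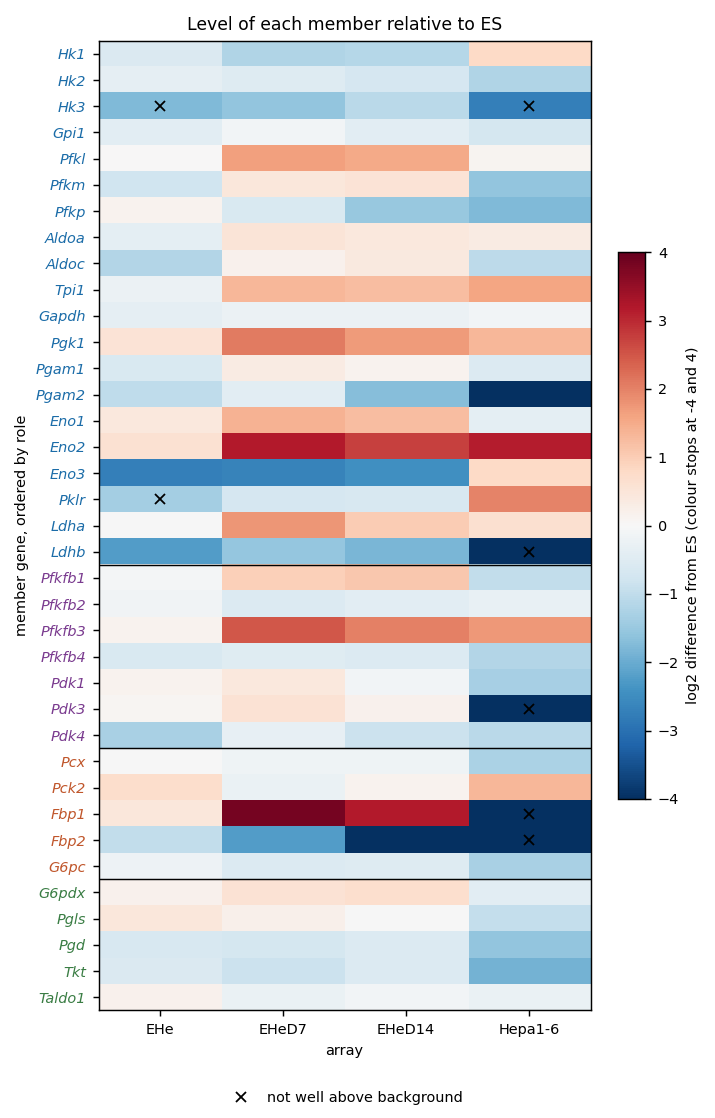
Log2 difference of each member from ES (colour, red higher and blue lower, stopped at -4 and 4) in the 3 hybrid arrays and Hepa1-6 (x axis), with genes on the y axis by role. Crosses mark signals not well above background, which in Hepa1-6 fall on Hk3, Ldhb, Pdk3, Fbp1 and Fbp2.

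Neighbouring pathways were set beside the members. Their counts are to be read beside the shares of all genes past 3-fold. In EHe against ES 2.71% were higher and 5.64% lower, and in Hepa1-6 against ES 14.1% and 26.3%. Against EHe, 9.38% were higher and 4.16% lower in EHeD7, and 9.56% and 4.81% in EHeD14. Of 15 measured genes of the tricarboxylic acid cycle, 0 passed 3-fold in any of the 4 comparisons, and their median log2 difference from EHe was -0.24 in EHeD7 and -0.20 in EHeD14. Of 9 genes for pyruvate entry and pyruvate dehydrogenase, 0 passed on differentiation. In Hepa1-6 against ES, Pdp1, a phosphatase that switches the enzyme on, was 3.49-fold higher and Pdhb, a subunit of it, was 3.26-fold lower.

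Other genes of glycolysis and sugar entry did not follow the members, with a median of -0.15 in EHeD7 and -0.08 in EHeD14 over 21 genes. In EHeD7 1 was higher (Gckr, inhibitor of glucokinase) and 1 lower (Ldhc), and in EHeD14 3 were higher and 2 lower. Of these, Khk, the fructokinase, was 3.04-fold and Hkdc1 9.92-fold above EHe in EHeD14, while the bound for Gckr was at least 1.21-fold. Of 12 other gluconeogenic genes, 0 passed on either day. Of 13 further pentose phosphate and NADPH genes, Tktl1, a transketolase relative, fell at least 10.6-fold to EHeD7 and at least 7.01-fold to EHeD14. Of 14 glycogen genes, 2 rose on both days (14.3%, against 9.38% of all genes in EHeD7 and 9.56% in EHeD14). Pygl, liver glycogen phosphorylase, was at 0.291 in ES and 0.0964 in EHe, then 2.58 in EHeD7 and 1.98 in EHeD14, and was not well above background in Hepa1-6. It rose 26.7-fold from EHe to EHeD7, after being 3.02-fold lower in EHe than in ES. Ppp1r3b, which targets a phosphatase to glycogen, rose 5.40-fold and 4.16-fold.

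Hypoxia-response genes outside glycolysis had the highest list median on day 7. Over 18 genes it was 0.88 in EHeD7 and 0.54 in EHeD14, against 0.40 and 0.31 for the members. In EHeD7 5 rose (Egln3, Bnip3, Ankrd37, P4ha2 and Ddit4), which is 27.8% of the 18 against 9.38% of all genes. Epas1, which encodes a hypoxia-inducible factor, fell 4.48-fold, with 4.16% of all genes lower. In EHeD14 only Ddit4 remained past 3-fold among those that rose, at 3.70-fold, and Epas1 was 12.9-fold below EHe. Vegfa, a growth factor induced by low oxygen, was 2.40-fold and 2.46-fold below EHe. In Hepa1-6 against ES, 4 of the 18 were higher (22.2%, against 14.1% of all genes) and 3 lower (16.7%, against 26.3%). The oxygen level in the cultures was not given in the sources used here, and the part of oxygen in these values was not tested.

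**Figure D5:**
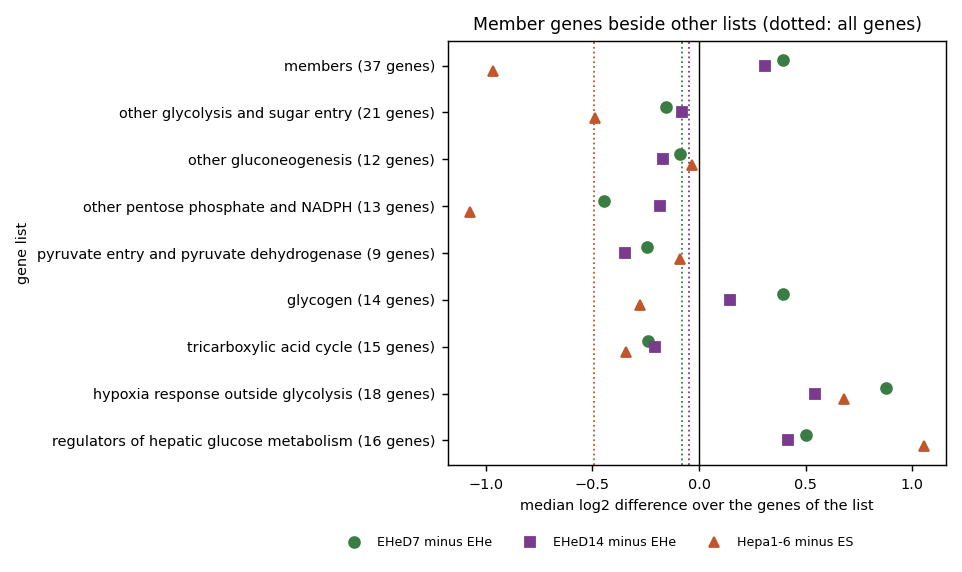
Median log2 difference (x axis) of the members and 8 other gene lists (y axis, number of measured genes in brackets) in EHeD7 and EHeD14 against EHe and in Hepa1-6 against ES, with dotted lines for the median of all genes. On day 7 the members at 0.40 lie right of the all-genes median of -0.08, and the hypoxia-response list lies farther right at 0.88.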

How the data were processed

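RNA of 5 conditions was hybridized to 1-colour Agilent arrays, 1 each. The labels give Cy3 as the dye, the paper Cy5. The authors deposited scanner tables from Agilent Feature Extraction 10.7.3.1, per the submitters' processing notes, and the processed signal is an intensity, corrected for background and detrended in that software but not normalized between arrays. The deposited series table held identical values. Here, control spots and outlier spots (73 to 174 per array) were left out, the log2 signals were shifted by the 75th percentile of each array, and spots of a probe were averaged. Probes well above background (a fraction of at least 0.5 of their spots) on at least 1 array were kept, 29975 of 41174. Probes were named through RefSeq accessions (26888 probes). A gene took the probe well above background on most arrays, then the brightest, and other probes are given where their 3-fold call differs. Values are given in full for members past 3-fold, for isozyme families and for Gapdh, and genes outside the list are named only when past 3-fold, except Pkm, Vegfa and markers, which were chosen after their values were seen. Members, lists and alternatives were chosen with earlier results of these data known. Alternatives were normexp (offset 50), quantile normalization, median centring, other percentile probes, dim values at the detection limit, the mean of probes, other filters, the deposited series table and 2-fold. The procedure was tested on simulated data. A comparison of isozyme proteins was not run. R 4.3.3 with limma 3.58.1 and Python 3.11.15 with pandas 2.3.3, numpy 2.4.6 and matplotlib 3.10.9 were used.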

Additional observations from a re-analysis of the deposited data

How the results depend on the processing

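Of 116 values of counts and medians recomputed under alternatives, 88 moved by less than 0.10 on the log2 scale or 1.5 times, and 28 moved by more. The alternatives, also for single genes below, include the deposited series table, which held identical signals. They also include no filter on dim probes, which leaves the probe chosen for a member unchanged. Both could only return the main value for the members and say nothing about stability. Shares in brackets below are those of all genes. For EHe against ES, the count of lower members was 1 with probes bright on all 5 arrays (2.03%) and 7 at 2-fold (12.2%). The median was -0.12 under quantile normalization and -0.13 under median centring. For EHeD7 against EHe, 10 were higher (16.2%) and 1 lower (8.17%) at 2-fold. The median was 0.22 under median centring and 0.54 with the 75th percentile over probes bright on all 5 arrays. For EHeD14 against EHe, the higher count was 5 under quantile normalization (9.36%), 6 with that percentile (10.5%) and 10 at 2-fold (15.3%). The lower count was 1 with that percentile (4.33%), with the mean of probes (4.75%) and with probes bright on all 5 arrays (2.70%). The median was 0.16 under median centring, 0.43 with that percentile, 0.11 with dim values at the detection limit and 0.13 with probes bright on all 5 arrays. For Hepa1-6 against ES, the higher count was 1 with normexp (10.3%), 5 under quantile normalization (15.5%), 7 under median centring (22.2%) and 6 at 2-fold (19.7%). The lower count was 3 with probes bright on all 5 arrays (15.7%) and 17 at 2-fold (35.9%). Its median was -0.68 with normexp, -0.50 under quantile normalization, -0.18 under median centring and -0.54 with probes bright on all 5 arrays. Of 205 values of single genes, 124 moved by less than 0.10 on the log2 scale, 80 by more and 1 reversed, Pfkfb3 in Hepa1-6 against ES, at -0.25 with the mean of probes. The cause was not tested. Eno3 and Ldhb in EHe, Eno2 and Fbp1 on both days, Ldha in EHeD7 and Fbp2 in EHeD14 stayed past 3-fold under every alternative run for them. No paired analysis was possible because there was only 1 array for a condition. Members not well above background carry bounds only.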

Other observations

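Regulators of hepatic glucose metabolism had medians above those of the members. Over 16 measured genes the median log2 difference was 1.05 in Hepa1-6 against ES, where the members' median was -0.97, and 0.50 in EHeD7 and 0.42 in EHeD14 against EHe. In Hepa1-6 against ES, 6 were higher (37.5%, against 14.1% of all genes) and 0 lower (against 26.3%). Among the 6 were Irs1, an insulin receptor substrate, at 58.5-fold, Cebpb, a liver transcription factor, at 15.2-fold and Insr, the insulin receptor, at 9.09-fold. On differentiation only Irs1 passed 3-fold, at 0.18 in EHe, 1.70 in EHeD7 and 1.58 in EHeD14, against 3.62 in Hepa1-6. Hnf4a, a master regulator of hepatocytes, was at 0.155 in Hepa1-6 and at 0.0513 and 0.0483 in EHeD7 and EHeD14, and was not well above background in EHe. ES also had its signal. Hnf4a did not pass 3-fold between Hepa1-6 and ES, and was called lower in EHe than in ES, with 5.64% of all genes. That call rests on the dim EHe signal.

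Me1, the cytosolic malic enzyme that makes NADPH outside the pentose phosphate pathway, was at 0.559 in ES and 9.44 in Hepa1-6, and the hybrid was at 2.06 in EHe, 2.07 in EHeD7 and 2.30 in EHeD14. It was 16.9-fold higher in Hepa1-6 than in ES, with all 3 hybrid arrays between the parents. The 5 pentose phosphate members lay below ES in Hepa1-6, as did the median of all genes, at -0.49 on the log2 scale. G6pdx at -0.42 and Taldo1 at -0.25 lay above that median.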
